A study of Mus musculus with 25 samples.

Results

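Tanycytes and ependymal cells line the third ventricle of the hypothalamus. Ciliated ependymal cells cover its walls and move cerebrospinal fluid with beating cilia. Tanycytes cover its floor and lower walls, send long processes into the arcuate nucleus and the median eminence, and are known for activating thyroid hormone, sensing nutrients and passing hormones between blood, fluid and neurons. The 10 genes described here are 6 genes of tanycytes (Rax, Dio2, Gpr50, Vim, Nes and Fgf10) and 4 of ciliated ependymal cells (Foxj1, Ccdc153, Rarres2 and Tmem212). They were chosen by symbol, and all 10 occur among the 24421 genes of the tables.

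RNA was sequenced from hypothalamus of wild-type C57BL/6J mice aged 3 months. Dams ate a hypercaloric diet (HCD, high in sucrose, with 52% fat) or regular chow (RD), starting 1 month ahead of mating and ending with lactation, and at weaning their offspring were given either diet. The offspring of HCD dams are HCD-HCD Male, HCD-HCD Female, HCD-RD Male and HCD-RD Female, with 3 samples each, where the second diet is that of the offspring. The offspring of RD dams are RD-HCD Male, RD-HCD Female and RD-RD Female, with 3 samples each, and RD-RD Male with 4. Each comparison sets HCD dams against RD dams within 1 sex and 1 offspring diet, and the 4 comparisons share no samples by the labels. Whether the mice of 1 group had different dams is not in the labels, so p-values measure only the spread between these samples. That spread may be one between littermates, or technical.

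All fold changes, standard errors and p-values below are those of the authors' deposited tables, 1 for each comparison. The columns of individual libraries are headed by numbers that match no label and were not used, so no value of a single sample and no mean of a group is given. The level of a gene is the authors' mean normalized count over all libraries of a comparison, scaled here to CPM (its share of all such counts in its table) and divided by the length of the longest protein-coding transcript in kilobases. Positive log2 fold changes are taken to mean higher expression when the dam ate HCD. The labels call the RD-dam group the control for HCD-weaned offspring, and for RD-weaned offspring the reading rests on the order of the group names. If that reading is wrong, all signs of a table turn together. Genes are called where the adjusted p of the authors' deposited table is under 0.05. By this rule 0.163% of all tested genes were called in the males and 1.52% in the females weaned onto HCD, and 0.0851% in the males and 0.346% in the females weaned onto RD. In bulk tissue, fewer cells of a type and less RNA per cell cannot be told apart.

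The tanycyte genes lie on 6 chromosomes of GRCm38 in the GENCODE annotation. Rax lies on chromosome 18 from 65928277 to 65939787, Dio2 on chromosome 12 from 90724552 to 90738438 and Gpr50 on chromosome X from 71663667 to 71669257. Vim lies on chromosome 2 from 13573927 to 13582826, Nes on chromosome 3 from 87971078 to 87980451 and Fgf10 on chromosome 13 from 118669791 to 118792115. Of the ependymal genes, Foxj1 lies on chromosome 11 from 116330704 to 116335399, Ccdc153 on chromosome 9 from 44240676 to 44247306, Rarres2 on chromosome 6 from 48569696 to 48572789 and Tmem212 on chromosome 3 from 27866066 to 27896368. The longest transcripts of the tanycyte genes had 2193 (Vim), 2323 (Rax), 3069 (Gpr50), 4114 (Fgf10), 5815 (Dio2) and 6126 (Nes) bases. Those of the ependymal genes were shorter except for Foxj1, with 716 (Tmem212), 795 (Rarres2), 1087 (Ccdc153) and 2623 (Foxj1) bases.

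The levels of the tanycyte genes spanned a wide range. Rax, a homeobox transcription factor gene that marks tanycytes, had a mean normalized count between 1.60 and 7.79 in the authors' deposited tables. This was under 10 in each comparison, so these tables give Rax no adjusted p. Per kilobase, Rax stood at 0.0448 to 0.124 CPM, at or below percentile 0.978 of all genes tested. Gpr50, an orphan receptor gene related to the melatonin receptors and another marker of tanycytes, had a mean between 9.37 and 39.2 in the authors' deposited tables and stood at 0.198 to 0.473 CPM per kilobase. The most specific tanycyte markers of the set were therefore those measured with the fewest counts.

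The other tanycyte genes were more abundant. Fgf10, a secreted growth factor gene, stood at 1.16 to 1.60 CPM per kilobase, and Nes, the gene of the intermediate filament nestin, at 1.96 to 3.01. Dio2 encodes the deiodinase that makes active thyroid hormone and stood at 10.6 to 13.0 CPM per kilobase. Vim, the gene of the intermediate filament vimentin, was the most abundant of the 6 at 27.8 to 34.7 CPM per kilobase. Astrocytes also express Dio2, and vessels also express Vim and Nes, so these 3 genes are not particular to tanycytes.

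The ependymal genes lay within a narrower range. Foxj1, the transcription factor gene of the motile cilium programme, stood at 11.9 to 15.7 CPM per kilobase. Tmem212, a membrane protein gene used as an ependymal marker, stood at 14.1 to 24.0 CPM per kilobase. Ccdc153, a coiled-coil protein gene used as an ependymal marker, stood at 20.2 to 38.8 CPM per kilobase. Rarres2, which encodes the secreted protein chemerin and which tanycytes of rats express too, stood at 42.5 to 67.6 CPM per kilobase. Within every table Rarres2 had the highest level of the 10 genes per kilobase. The 4 tables were normalized separately, so levels were not tested across them.

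**Figure D1:**
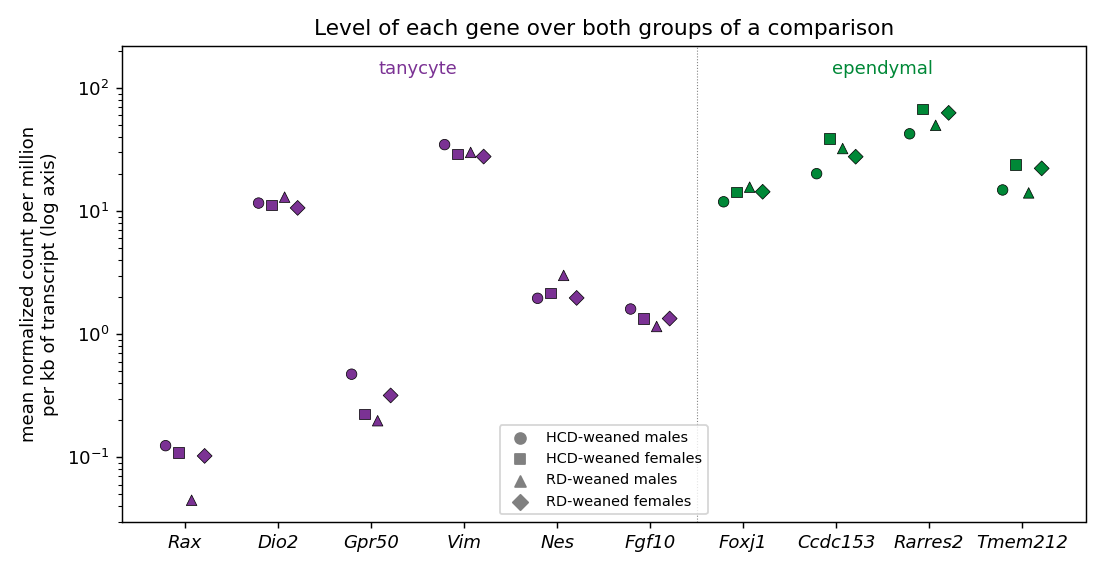
Level of the 10 genes (horizontal axis) in CPM per kilobase of transcript (vertical log axis), with 1 marker per comparison over both of its groups. Rax and Gpr50 lie below 0.5 and Rarres2 lies highest, between 42.5 and 67.6.

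None of the 10 genes was called in any comparison. Of the 40 pairs of a gene and a comparison, 34 have an adjusted p in the authors' deposited tables, and the lowest was 0.222. The largest log2 fold change in size among them was 0.90, where a log2 fold change between 0.78 and 1.86 would have been needed for a call, given each gene's standard error. At an unadjusted p under 0.05 there were 6 such pairs: 3 of 9 tested members in the males (all genes: 8.14%) and 0 of 9 in the females (13.3%) weaned onto HCD, and 1 of 7 in the males (4.3%) and 2 of 9 in the females (6.16%) weaned onto RD. These intervals leave room for changes of moderate size, and the absence of calls does not show equal expression.

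**Figure D2:**
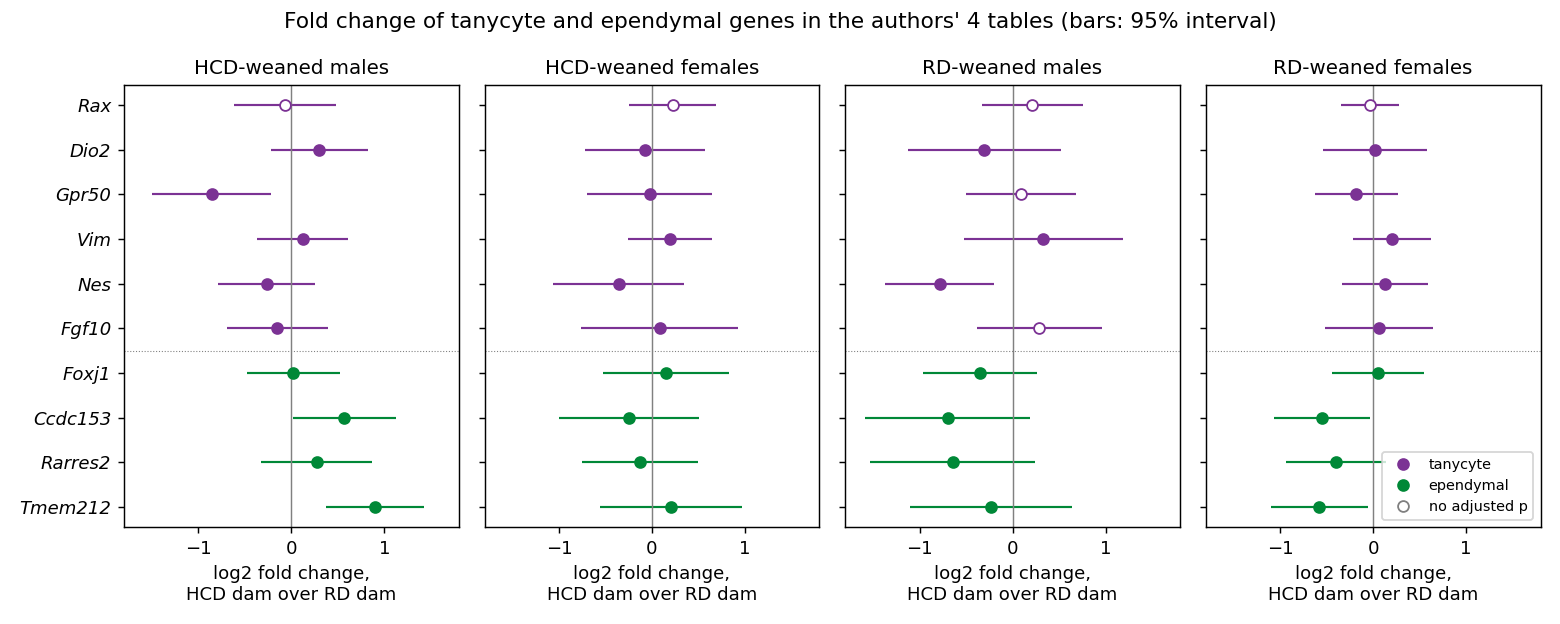
Log2 fold change of HCD-dam over RD-dam offspring (horizontal axis) for each gene in the authors' 4 tables, with 95% intervals, tanycyte genes above and ependymal genes below the dotted line. Tmem212 stands at 0.90 in HCD-weaned males and at -0.58 in RD-weaned females, and the 10 genes had 0 calls in total.

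In males weaned onto HCD, the ependymal genes stood above 0 and most tanycyte genes below it, and none passed the test (all genes: 48.9% above 0 and 51.1% below it). Tmem212 stood at 0.90 ± 0.27 (log2 fold change, SE) in the authors' deposited table, a 1.87-fold difference (unadjusted p = 0.000847, adjusted p = 0.222 by DESeq). Ccdc153 lay at 0.57 ± 0.28 (SE) in the authors' deposited table (unadjusted p = 0.0431, adjusted p = 0.603 by DESeq). Rarres2 (0.27 ± 0.30, SE) and Foxj1 (0.02 ± 0.26, SE) lay within 1 standard error of 0 by the authors' deposited table. The 2 marker genes of the ciliated cell thus had larger values than Foxj1, the regulator of their cilia. The median of the 4 ependymal genes was 0.42, beside a median of -0.01 over all genes tested. Of the tanycyte genes, Gpr50 had the most negative value in the authors' deposited table (-0.86 ± 0.33, SE; unadjusted p = 0.00851, adjusted p = 0.456 by DESeq). Nes (-0.26 ± 0.27, SE) and Fgf10 (-0.15 ± 0.28) were below 0 in the authors' deposited table, and Dio2 (0.30 ± 0.27) and Vim (0.12 ± 0.25) above it. Rax lay at -0.07 ± 0.28 (SE) in the authors' deposited table. The 5 tested tanycyte genes had a median of -0.15.

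Transcript length moved with the fold change in these males. Across all 14831 genes with a length, the Wald statistic fell with the length of the longest transcript (Spearman rho = -0.57; this is across genes, and genes are not independent replicates). Genes with a longest transcript of up to 2166 bases had a median log2 fold change of 0.21 and 77.4% of them were above 0, where longer genes had a median of -0.10 and 37.2% above 0. Tmem212, Rarres2 and Ccdc153 are on the short side of that length, and all 6 tanycyte genes and Foxj1 are on the long side. With the trend in length and GC content removed, Tmem212 stood at 0.64, Ccdc153 at 0.32, Rarres2 at -0.07 and Foxj1 at -0.12, and Gpr50 stood at -0.85. The median of the ependymal genes was then 0.13 and that of the tanycyte genes -0.01. Why length moves with the fold change was not tested.

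**Figure D3:**
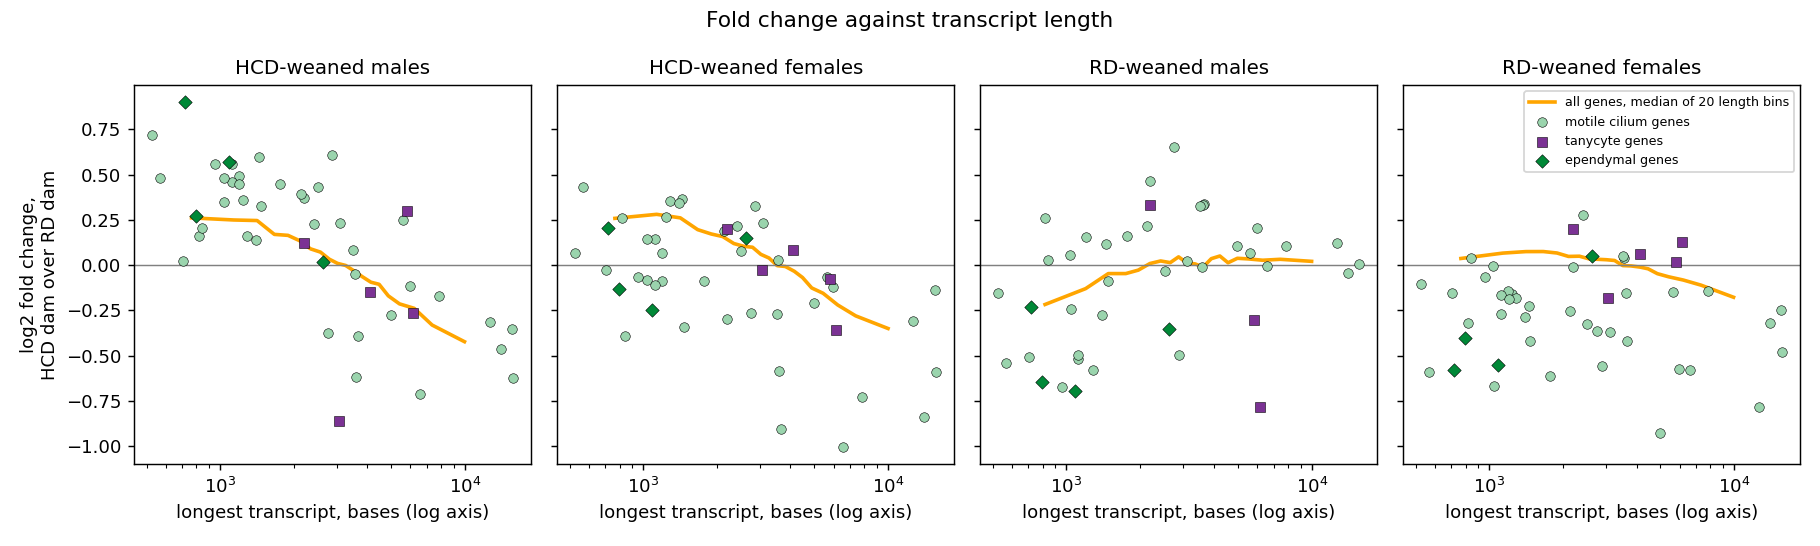
Log2 fold change of HCD-dam over RD-dam offspring (vertical axis) against the longest transcript in bases (horizontal log axis) for motile cilium, tanycyte and ependymal genes, with the median of all tested genes in length bins as a line. In HCD-weaned males the line falls with length, Rarres2 (0.27) lies near its upper end, and Tmem212 (0.90) and Ccdc153 (0.57) lie above it. In RD-weaned females these 3 short ependymal genes lie below the line.

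In females weaned onto HCD, both sets of genes lay around 0. Of the 4 ependymal genes 2 were above 0 and 2 below it, against 54.4% and 45.6% of all genes. The 4 ependymal genes had a median of 0.01 and the 5 tested tanycyte genes a median of -0.02, beside 0.04 over all genes tested. Tmem212 (0.21 ± 0.39, SE), Foxj1 (0.15 ± 0.35), Rarres2 (-0.13 ± 0.32) and Ccdc153 (-0.25 ± 0.39) each lay within 1 standard error of 0 by the authors' deposited table. So did Dio2 (-0.07 ± 0.33, SE), Gpr50 (-0.02 ± 0.34), Vim (0.20 ± 0.23), Nes (-0.36 ± 0.36), Fgf10 (0.08 ± 0.43) and Rax (0.22 ± 0.24) in the authors' deposited table. This was the comparison with the largest share of called genes, and it had 0 members at an unadjusted p under 0.05. Longer genes had lower Wald statistics in these females as well (Spearman rho = -0.46 across genes). With the trend removed, all 4 ependymal genes were below 0, with a median of -0.27, and the tanycyte median was 0.11.

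In males weaned onto RD, all 4 ependymal genes stood below 0 and none passed the test. Ccdc153 stood at -0.70 ± 0.45 (log2 fold change, SE) in the authors' deposited table and Rarres2 at -0.65 ± 0.45. Foxj1 lay at -0.35 ± 0.31 (SE) and Tmem212 at -0.23 ± 0.44 in the authors' deposited table. Their median was -0.50, beside a median of 0.00 over all genes tested, of which 50% were below 0 and 50% above it. Standard errors were the widest of the 4 comparisons for Ccdc153, Rarres2 and Tmem212, and a log2 fold change of 1.82 or more in size would have been needed for a call of each of these. Nes was the most negative tanycyte gene in the authors' deposited table (-0.78 ± 0.30, SE; unadjusted p = 0.00859, adjusted p = 0.640 by DESeq). Dio2 (-0.30 ± 0.42, SE) and Vim (0.33 ± 0.44) lay within 1 standard error of 0 by the authors' deposited table. Rax (0.21 ± 0.28, SE), Gpr50 (0.09 ± 0.30) and Fgf10 (0.29 ± 0.34) lack an adjusted p in the authors' deposited table, where Fgf10 has no p-value either. The median of the 3 tested tanycyte genes, Dio2, Vim and Nes, was -0.30, and these 3 are not particular to tanycytes. That of all 6 with a fold change was 0.15 and includes Rax and Gpr50, with mean counts under 10. The direction of the tanycyte median in RD-weaned males therefore depended on which members have an adjusted p. Transcript length moved less with the Wald statistic in this table (Spearman rho = 0.09 across genes), and with the trend removed the ependymal median was -0.39.

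In females weaned onto RD, 3 of 4 ependymal genes stood below 0 and the tanycyte genes lay around 0 (all genes: 50.9% above 0 and 49.1% below it). Tmem212 stood at -0.58 ± 0.27 (log2 fold change, SE) in the authors' deposited table (unadjusted p = 0.0295, adjusted p = 0.695 by DESeq). Ccdc153 lay at -0.55 ± 0.26 (SE) in the authors' deposited table (unadjusted p = 0.0362, adjusted p = 0.737 by DESeq). Rarres2 lay at -0.40 ± 0.27 (SE) and Foxj1 at 0.05 ± 0.25 in the authors' deposited table. The ependymal median was -0.48, and it was -0.51 with the length and GC trend removed. Of the tanycyte genes, Vim (0.20 ± 0.21, SE), Nes (0.13 ± 0.23), Fgf10 (0.06 ± 0.29) and Dio2 (0.02 ± 0.29) were above 0 in the authors' deposited table. Gpr50 (-0.18 ± 0.23, SE) and Rax (-0.04 ± 0.16) were below 0 in the authors' deposited table. The 5 tested tanycyte genes had a median of 0.06.

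Set side by side, the ependymal median minus the tanycyte median was 0.57 in males and 0.03 in females weaned onto HCD, and -0.19 in males and -0.54 in females weaned onto RD. With the sign of the RD-weaned tables turned, the last 2 would be 0.19 and 0.54, so that all 4 would be positive. These medians rest on 4 ependymal and at most 5 tanycyte genes and were not tested. In RD-weaned males the tanycyte median of -0.30 rests on 3 genes that are not particular to tanycytes. Over all 6 tanycyte members with a fold change that median was 0.15. As read here, Vim had a positive log2 fold change in all 4 of the authors' deposited tables, from 0.12 to 0.33, and in none of them did it exceed its standard error. With the RD-weaned sign turned, Vim would be negative in both of those tables, and Tmem212 would be positive in all 4 (0.23 in males and 0.58 in females weaned onto RD). Ccdc153, Rarres2 and Tmem212 were positive in males weaned onto HCD and, as read here, negative in RD-weaned offspring of both sexes. Turned, Ccdc153 would stand at 0.70 and Rarres2 at 0.65 in RD-weaned males, above their values in HCD-weaned males.

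The differences between comparisons were tested gene by gene, offspring diet within a sex and sex within an offspring diet. The difference of 2 fold changes of the authors' deposited tables was divided by its standard error and adjusted over all genes by the Benjamini-Hochberg method. No member passed in any of the 4 differences, in which 0.00775%, 0.00685%, 0% and 0.00791% of all genes passed. At an unadjusted p under 0.05 there were 3 of 32 member values, 2 between the males of both offspring diets (all genes: 3.84%), 0 between the females (5%), 0 between the HCD-weaned sexes (0.642%) and 1 between the RD-weaned sexes (3.05%). The Ccdc153 value of HCD-weaned males exceeded that of RD-weaned males by 1.27 (95% interval 0.22 to 2.31) and did not pass the adjustment. That of Tmem212 exceeded it by 1.13 (95% interval 0.11 to 2.15) and did not pass either. The Nes value of RD-weaned males minus that of RD-weaned females was -0.91 (95% interval -1.66 to -0.17), again without passing. The lowest adjusted p of any member in these normal tests on the authors' fold changes was 0.978. In HCD-weaned males minus HCD-weaned females, Gpr50 differed by -0.83 (95% interval -1.76 to 0.10), so a difference between the sexes was not resolved. Of all genes, Mir6236 passed between the males of both offspring diets, Mt1 between the females and Gpr151 between the RD-weaned sexes. These were named after their values were seen.

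Further lists bear on the ependymal cell. A list of 40 genes of the motile cilium, such as dynein arm, radial spoke and central pair genes, had 38 symbols in the tables. In HCD-weaned males 26 of 38 tested members were above 0 (all genes: 48.9%), with a median of 0.23 and 0 called. The 19 members of up to 2166 bases were all above 0, with a median of 0.45, and 7 of the 19 longer members were above 0, with a median of -0.17. Dynlrb2, a dynein light chain gene, stood at 0.72 ± 0.30 (SE; adjusted p = 0.523), and Cfap44, a gene of the axoneme, at -0.71 ± 0.31 (SE; adjusted p = 0.545), both by DESeq in the authors' deposited table. In RD-weaned females 34 of 38 were below 0, against 49.1% of all genes, with a median of -0.25 and 0 called. There, 16 of the 19 longer and 18 of the 19 shorter members were below 0. Of all genes in these females, 46.4% of the longer and 61.8% of the shorter were above 0. Ccdc40, a gene needed for assembly of ciliary dynein arms, stood at -0.93 ± 0.29 (SE; adjusted p = 0.167), and the dynein heavy chain gene Dnah6 at -0.78 ± 0.28 (SE; adjusted p = 0.333), both by DESeq in the authors' deposited table. In females weaned onto HCD 16 of 38 were above 0 (median -0.07, all genes: 54.4% above 0). In males weaned onto RD 19 of 34 were (median 0.02, all genes: 50%), with 0 called in either comparison. In RD-weaned males 7 of the 17 shorter members were above 0, with a median of -0.15 (all shorter genes: 41.1% above 0), and 12 of the 17 longer members, with a median of 0.11 (all longer genes: 53.4%).

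The list of 10 ciliogenesis regulators had 0 called members in every comparison. Its median was -0.08 in males and 0.01 in females weaned onto HCD, and 0.12 in males and -0.26 in females weaned onto RD. Rfx3, a transcription factor gene of the cilium programme, had the largest Wald statistic of the list in HCD-weaned females and stood at -0.88 ± 0.36 (SE; adjusted p = 0.216 by DESeq) in the authors' deposited table. In RD-weaned females 7 of 10 regulators were below 0 (all genes: 49.1%), and Rfx4 stood at -0.62 ± 0.27 (SE; adjusted p = 0.615 by DESeq) in the authors' deposited table.

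The start regions of Ccdc153 and Tmem212 are shown because these were the members with an unadjusted p under 0.05 in more than 1 comparison. The sequences are those of RefSeq on GRCm38.p6, each 300 bases long and ending 50 bases after the start. Ccdc153 is read from chr9:44240427-44240726 on the plus strand and Tmem212 from chr3:27896319-27896618 on the minus strand. Capitals mark the RFX half-site GTTGCC, the first base of which lies 152 bases before the Ccdc153 start.
Ccdc153: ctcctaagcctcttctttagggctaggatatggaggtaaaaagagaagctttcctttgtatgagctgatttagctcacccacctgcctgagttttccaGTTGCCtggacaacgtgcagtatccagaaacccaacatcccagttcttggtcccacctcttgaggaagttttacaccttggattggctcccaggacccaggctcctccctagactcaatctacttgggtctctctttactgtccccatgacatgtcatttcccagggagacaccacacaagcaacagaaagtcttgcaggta
Tmem212: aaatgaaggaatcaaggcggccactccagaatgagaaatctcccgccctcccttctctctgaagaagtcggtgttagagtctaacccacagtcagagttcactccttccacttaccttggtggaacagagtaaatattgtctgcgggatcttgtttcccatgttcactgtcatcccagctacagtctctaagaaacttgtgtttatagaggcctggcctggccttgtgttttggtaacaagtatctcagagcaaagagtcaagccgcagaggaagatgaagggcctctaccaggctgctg
Both strands were searched for GTTGCC and for the forkhead core GTAAACA, which do not overlap in these sequences. GTTGCC occurred in 12.5% of 32851 RefSeq start regions of the same length and in 1 of the 7 members with an entry, Ccdc153. GTAAACA occurred in 3.65% of all start regions and in 1 of the 7, Fgf10, on the reverse strand. Tmem212 held neither. These matches are descriptions of the letters in these windows.

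Further tanycyte genes and genes of tanycyte pathways were set beside the 6. Of 15 further tanycyte genes, 2 were called, both lower, in HCD-weaned females, where 9 of 15 were below 0 with a median of -0.51. Of all genes there, 1.52% were called and 45.6% were below 0. Igfbp5, a binding protein gene for insulin-like growth factors, fell by 1.02 ± 0.24 on the log2 scale (SE; adjusted p = 0.00739 by DESeq), and Ptch1, the hedgehog receptor gene, by 1.51 ± 0.43 (SE; adjusted p = 0.0373 by DESeq) in the authors' deposited table. Both genes are also expressed by other brain cells, and their longest transcripts have 6006 and 7725 bases. With the length and GC trend removed, the median of this list was -0.08. In HCD-weaned males 10 of 15 were below 0 (median -0.38), in RD-weaned males 7 of 13 (median -0.05) and in RD-weaned females 6 of 15 (median 0.09), with 0 called in each. Of all genes, 51.1%, 50% and 49.1% were below 0 in these comparisons, and 0.163%, 0.0851% and 0.346% were called. Col25a1, a membrane collagen gene of tanycytes, stood at -0.82 ± 0.27 (SE; adjusted p = 0.307 by DESeq) in HCD-weaned males in the authors' deposited table. Frzb, which encodes a secreted Wnt antagonist, stood at 0.80 ± 0.29 (SE; adjusted p = 0.345 by DESeq) in RD-weaned females in the authors' deposited table.

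Among 10 genes of thyroid hormone handling, on which Dio2 acts, 0 were called in any comparison. Their medians were -0.01 in males and -0.08 in females weaned onto HCD, and -0.01 in males and 0.18 in females weaned onto RD. The transport protein gene Ttr counts both here and among choroid plexus markers. Slco1c1, a thyroid hormone transporter gene, stood at -0.72 ± 0.26 (SE; adjusted p = 0.145 by DESeq) in females weaned onto HCD in the authors' deposited table. The 10 genes of retinoid handling had 0 calls and medians of -0.23, 0.18, -0.11 and -0.04 in the same order.

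Of 8 partners of FGF signalling and intermediate filaments, 1 was called, in HCD-weaned females, where 1.52% of all genes were. The called gene was Tubb3, a neuronal tubulin gene that counts in this list but is neither an FGF partner nor an intermediate filament gene. It was higher in HCD-weaned females at 0.83 ± 0.18 (SE; adjusted p = 0.00257 by DESeq) in the authors' deposited table. Its longest transcript has 1868 bases, and 77.3% of all genes of up to 2166 bases were above 0 in these females. The list medians were 0.12, 0.16, -0.21 and -0.05 in the order above. The 3 receptor genes of chemerin had 0 calls and medians of -0.08, 0.07, 0.07 and -0.16. The most negative was Gpr1 in RD-weaned females at -0.83 ± 0.29 (SE; adjusted p = 0.303 by DESeq) in the authors' deposited table.

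Markers of neighbouring cell types and tissues moved in some of the same comparisons, and their part in the values of the 10 genes was not tested. Choroid plexus, an epithelium continuous with the ependyma, was present in all 4 tables, and the mean normalized count of its transport protein gene Ttr lay between 77690 and 116200 in the authors' deposited tables. In RD-weaned females 10 of 12 choroid plexus markers were above 0 (all genes: 50.9%) and 2 were called (all genes: 0.346%). Their median was 0.58, while the ependymal median was -0.48. Of these markers, Kl (1.01 ± 0.23, SE; adjusted p = 0.00867) and Kcnj13 (0.84 ± 0.22, SE; adjusted p = 0.0479) were called by DESeq in the authors' deposited table. In the other comparisons the choroid plexus median was 0.04 in males and -0.30 in females weaned onto HCD, and 0.03 in males weaned onto RD, with 0 called.

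In RD-weaned males 11 of 12 astrocyte markers were below 0 (median -0.21, all genes: 50% below 0). In RD-weaned females 11 of 12 were (median -0.19, all genes: 49.1%). Of these markers 0 and 2 were called (all genes: 0.0851% and 0.346%). The 2 were the GABA transporter gene Slc6a11 (-0.83 ± 0.21, SE; adjusted p = 0.0398) and the angiotensinogen gene Agt (-0.79 ± 0.21, SE; adjusted p = 0.0460), by DESeq in the authors' deposited table. Their medians were -0.01 in HCD-weaned males, with 0 called, and -0.28 in HCD-weaned females, where the water channel gene Aqp4 was called at -1.25 ± 0.33 (SE; adjusted p = 0.0229 by DESeq) in the authors' deposited table. Of 12 endothelial and mural markers, 9 were below 0 in HCD-weaned males (median -0.23, all genes: 51.1% below 0). The medians of these markers in the other comparisons were -0.09, 0.03 and 0.20. The pericyte gene Rgs5 was their 1 called member, in HCD-weaned females (-1.57 ± 0.41, SE; adjusted p = 0.0219 by DESeq) in the authors' deposited table. In that comparison 1.52% of all genes were called. All 12 meningeal fibroblast markers were below 0 in HCD-weaned males (median -0.63, all genes: 51.1% below 0). The ependymal median there was 0.42. Of these markers 1 was called (all genes: 0.163%), Ogn at -1.20 ± 0.28 (SE; adjusted p = 0.0185 by DESeq) in the authors' deposited table. The meningeal medians were -0.21, -0.10 and -0.01 in the other comparisons.

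Transcription factor genes of hypothalamic neurons had a median of -0.78 in HCD-weaned males, with 9 of 9 tested members below 0. Of all genes there, 51.1% were below 0 and 0.163% were called. Fezf1 (-1.55 ± 0.32, SE; adjusted p = 0.00242) and Sim1 (-1.37 ± 0.32, SE; adjusted p = 0.0185) were called by DESeq in the authors' deposited table. The list had 0 calls elsewhere. In HCD-weaned females 4 of 6 tested members were below 0 (median -0.13, all genes: 45.6% below 0). In RD-weaned males 3 of 4 were (median -0.11, all genes: 50%), and in RD-weaned females 8 of 8 (median -0.32, all genes: 49.1%). Of the 12 genes, 6 had a mean of 10 or more in every table and 3 a mean under 10 in every table. A gene under a mean of 10 over both groups was not tested, so a gene could enter through its higher group alone. The counts of tested members below 0 are partly set by this rule. Nr5a1 was tested in HCD-weaned males at a mean of 11.6, beside 0.735 to 0.747 in the other comparisons. With the untested genes included, the medians were -0.74, -0.10, -0.11 and -0.27 in the order above. Lhx6 (mean normalized count 79.3 to 271) and Isl1 (135 to 219) had the highest mean counts of the list in the authors' deposited tables, and Nkx2-1, a gene of the ventral hypothalamus, lay between 60.3 and 80.9 there. Sim1, a gene of the paraventricular nucleus, lay between 4.59 and 26.5 and Nr5a1, a gene of the ventromedial nucleus, between 0.735 and 11.6 in the authors' deposited tables. Lhx6, Isl1, Nkx2-1 and Nr5a1 were named after their values were seen. Markers of pituitary and pars tuberalis, which adjoin the tanycyte floor, had 0 calls and medians of -0.09, -0.02, -0.10 and -0.25. Only 6, 6, 3 and 4 of these 10 markers were tested. With the untested markers included, the medians were -0.13, 0.07, 0.04 and 0.02. Tshb did not exceed a mean of 0.248 in any of the authors' deposited tables. The pituitary hormone gene Prl had a mean of 394 in RD-weaned females and 0.0796 in RD-weaned males in the authors' deposited tables.

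**Figure D4:**
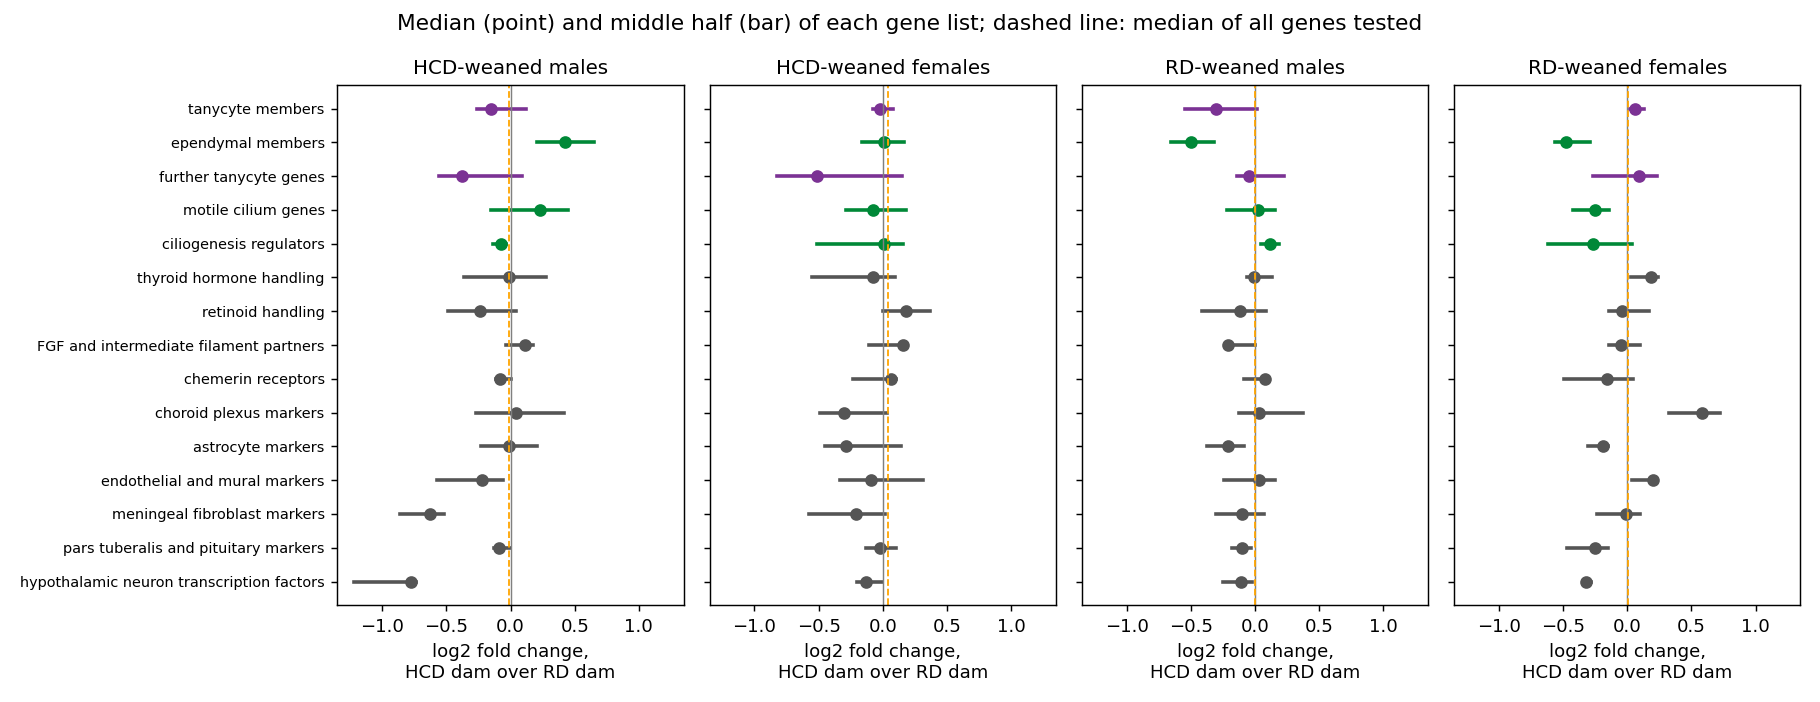
Median (point) and quartile range (bar) of the log2 fold change of HCD-dam over RD-dam offspring for each gene list (rows) in each comparison (panels), with the median of all genes tested as a dashed line. In RD-weaned females the ependymal median (-0.48) and the cilium median (-0.25) lie left of 0 and the choroid plexus median (0.58) right of it.

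The genes most like each set in their 4 fold changes were found by Euclidean distance among 12597 genes with an adjusted p in every one of the authors' deposited tables. Nearest to the ependymal medians were Sardh, Gatsl3, Pkd2l1, Mab21l2 and Scrn2, at distances of 0.14 to 0.21. Sardh stood at 0.36, -0.04, -0.40 and -0.44 in the order of the comparisons above in the authors' deposited tables. Nearest to the tanycyte medians were Bbs4, Ptrf, Trim30d, Mest and Slc2a12, at distances of 0.07 to 0.09. With 4 values per gene such likeness is a description.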

How the data were processed

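Messenger RNA from hypothalamus, in 25 samples of 8 groups, was sequenced from stranded libraries, per the labels' protocols. DESeq (no version) and mm10 come from the submitters' processing notes. An aligner or counter was not given in the sources used here. The 4 comparison tables were used out of 12 deposited files. They hold a mean normalized count over libraries (a signal that is never negative), a log2 fold change with its standard error, a score (the Wald statistic), a p-value and an adjusted p, per the file headers. Genes with a mean under 10 have the status Low and no adjusted p in the authors' tables. An adjusted p is also missing for 1554 genes of status OK in RD-weaned males and for 342 such genes in RD-weaned females. The other 8 deposited files hold 48 columns of single libraries, whose running numbers match no label, and were not used. Those of RD-weaned males have 6 such columns for 7 labelled samples. The depth of single samples is thus unknown here.

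Medians, counts, levels per kilobase, 95% intervals (fold change ± 1.96 SE) and tests of differences were computed with Python 3.11.15, pandas 2.3.3, scipy 1.17.1 and statsmodels 0.14.6. Differences of 2 fold changes were tested against a normal distribution, and p-values were adjusted by the Benjamini-Hochberg method. In RD-weaned females Rax had a standard error of 0.16 at a mean normalized count of 5.62, and Vim 0.21 at 1435. Such small errors at low counts are those of shrunken fold changes, pulled towards 0, so intervals are nominal. A small value of a low-count gene therefore does not show equal expression. Lengths are those of GENCODE M21 transcripts (GRCm38), and the trend was fitted with polynomials of degree 3 in log length and GC content. The difference test and the trend removal were run on simulated normal values with the same standard errors and a trend of the fitted kind. Such a run checks the code and cannot show that these assumptions hold here. Between the HCD-weaned sexes the robust spread of the difference statistic was 0.72, below that of a standard normal distribution. The members and the gene lists, 13 besides the members, were chosen with earlier results of these data known. Named genes were all members, called genes of a list (up to 4) and, by the rule, the 2 genes of each list with the largest Wald statistic in a comparison, of which the text gives a selection. Of the list symbols, Cfap54 and Dnah12 were not matched, and Deup1 was matched as Ccdc67. Alternatives were another threshold, other filters, centring, a scaled statistic, trend removal and turned signs. A few genes of the lists are not reported here.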

Additional observations from a re-analysis of the deposited data

How the results depend on the processing

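No member was called under any alternative, with a lowest adjusted p of 0.145. Thresholds, filters and a scaled statistic leave the fold change unchanged. Among the 201 member values, only centring and trend removal could therefore turn a sign, and 192 kept theirs. The other 9 turned sign with the length and GC trend removed, at log2 fold changes of -0.00579 (Vim), 0.0261 (Fgf10), -0.12 (Foxj1) and -0.0689 (Rarres2) in HCD-weaned males, 0.20 (Dio2), 0.0154 (Gpr50), -0.0281 (Foxj1) and -0.11 (Tmem212) in HCD-weaned females, and -0.0258 (Foxj1) in RD-weaned females. The count of called genes over all genes was 25, 229, 11 and 52 in the order of the report. With the Wald statistic divided by its robust spread it was 3 in males and 56 in females weaned onto HCD, and 74 in males weaned onto RD. At an adjusted p under 0.10 it was 450 in females weaned onto HCD, and 23 in males and 90 in females weaned onto RD. With a mean count of at least 100 it was 16 in HCD-weaned males, and with the trend removed 50 in HCD-weaned females. Centring gave 100 positive and 96 negative calls in HCD-weaned females, against 148 and 81. Of 69 medians, 66 moved by less than the median standard error. The other 3 were the tanycyte median without Vim, Nes and Dio2 in HCD-weaned males (-0.50), the ependymal median of these males with the trend removed (0.13) and the tanycyte median of RD-weaned males over all members with a fold change (0.15). The last 2 were chosen after seeing the data, as was the split of cilium genes by length. The median standard error is that of single genes, so some medians changed sign within it. Without Nes, the tanycyte median of RD-weaned males went from -0.30 to 0.01. With the trend removed, the ependymal median of HCD-weaned females went from 0.01 to -0.27. With the sign of the RD-weaned table turned, 4 genes differed between the male and 186 between the female comparisons, against 1 each, and no member did. Between the males, Nes then differed by -1.05 (0.52 unturned), Ccdc153 by -0.13 and Tmem212 by 0.67. Divided by its robust spread, the difference passed for 12 genes between the female comparisons and for 3 between the HCD-weaned sexes. The cause of these shifts was not tested. No paired analysis was possible because the library columns carry no label, which also kept leaving out replicates, other normalizations and other tools from being run.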
